A study of Homo sapiens with 12 samples.

Results

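The genes described here encode the enzymes of the tricarboxylic acid (TCA) cycle and of pyruvate metabolism, together with the shuttle, malic and glutamate enzymes that tie the cycle to the cytosol. They were taken from a list of 31 gene symbols by function, with no measured value in the rule, and all 31 were found through their Ensembl identifiers in GENCODE among the 62703 genes of the count table. RNA-seq had been performed on HCT116, an established line of human colorectal cancer cells, 48 h after transfection of an siRNA against hnRNP U (labelled HNRNPU silencing) or of a control siRNA (labelled wild-type). Total RNA (labelled input) and heavy polysomal (HP) RNA, the transcripts that sediment with many ribosomes in a sucrose gradient, were sequenced from both. There were thus 4 groups of 3 libraries, HP RNA with hnRNP U siRNA, HP RNA with control siRNA, total RNA with hnRNP U siRNA and total RNA with control siRNA, 12 libraries in all. hnRNP U is an RNA-binding protein of the nucleus and cytoplasm that the study examined for its binding to RNA G-quadruplexes (RG4s), stacked structures formed by runs of guanine, and for its part in the translation of nuclear-encoded mitochondrial mRNAs. All cells were of 1 line, and the sources used here do not state which of the 2 listed hnRNP U siRNAs was used.

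Pyruvate made by glycolysis enters mitochondria through the carrier MPC1-MPC2. It is converted to acetyl-CoA by the pyruvate dehydrogenase complex, whose E1 component is switched off by kinases and switched on by phosphatases, or to oxaloacetate by pyruvate carboxylase. The TCA cycle oxidises acetyl-CoA and passes the electrons to the respiratory chain, while the malate-aspartate and glycerol phosphate shuttles bring in electrons from cytosolic NADH. All 31 genes lie in the nuclear genome, so their mRNAs are translated by cytosolic ribosomes and the mitochondrial proteins among them are imported.

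Libraries held 30305012 to 39761103 counts, and 30 of the 31 genes were among the 15920 that passed the filter on low counts. The gene that did not pass was ME3, a mitochondrial malic enzyme, with 0 to 4 counts per library. The target of the siRNA, HNRNPU, had 82.4, 75.2 and 77.1 CPM (counts per 1000000 of the scaled library size) in HP RNA with hnRNP U siRNA, against 1022, 1145 and 1074 CPM with control siRNA. In total RNA it had 168, 149 and 160 CPM with hnRNP U siRNA, against 992, 1106 and 986 CPM with control siRNA. Epithelial markers EPCAM, CDH1, KRT8, KRT18, KRT19 and CDX2 were expressed, with group means of CDX2, the least abundant of them, between 18.2 and 30.7 CPM. The intestinal markers VIL1 and LGR5 had 0 to 1 counts per library. Of 5 markers of other cell types, PTPRC, PECAM1, ALB and GFAP had 0 to 5 counts per library. The fibroblast marker COL1A1 had 7.62 ± 0.987 CPM in HP RNA with hnRNP U siRNA and 15.0 ± 1.16 CPM with control siRNA, and 9.98 ± 0.497 CPM in total RNA with hnRNP U siRNA and 16.7 ± 0.649 CPM with control siRNA (SD, n = 3 each). The 5 markers summed to 6.71 to 8.65 CPM in HP RNA with hnRNP U siRNA and 13.98 to 16.4 CPM with control siRNA, and to 9.56 to 10.7 CPM in total RNA with hnRNP U siRNA and 16.2 to 17.5 CPM with control siRNA. Their part in the results was not tested. Since all levels are relative to the library, fewer cells with a transcript and less of it per cell cannot be told apart.

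Because the study centred on RG4s, the annotated transcripts of the 31 genes were searched, on the transcript strand, for 4 runs of at least 3 G separated by loops of 1 to 7 nt. The motif was found in any transcript of 9 of the 31 genes (29%), against 44.6% of the 12758 protein-coding genes tested, and in the canonical transcript of 4 genes (12.9%), against 26.5%. The 9 genes were DLST, FH, GPD2, IDH1, MDH2, ME2, OGDH, PC and PDHX. The canonical motifs of GPD2 and ME2 are shown because the canonical transcript stands for the gene in the annotation, with the runs of G in capitals, from GENCODE release 44 transcripts on GRCh38. That of GPD2 (chr2:156585327-156585349) lies in the 3′ UTR, as do those of DLST and OGDH, and that of ME2 (chr18:50879209-50879230) in the 5′ UTR, each on the plus strand.
GPD2: GGGGtcGGGGtGGGtatgcaGGG
ME2: GGGGaGGGccGGGcggcgcGGG

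The motifs of FH, IDH1, MDH2, PC and PDHX lay only in annotated transcripts other than the canonical one, and that of MDH2 was a single unbroken run of G. For PDHX the motif lay in a 5′ UTR (chr11:34916392-34916419, plus strand).
PDHX: GGGcagcccGGGGGcGGGGcgaacGGGG
A match to these letters is a description of the sequence and was not measured as a folded structure.

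The canonical 3′ UTRs were also searched, on the transcript strand, for the 7-nt matches to bases 2 to 8 of the guide strands of the siRNAs listed in the study's methods, GTATGCT for hnRNP U siRNA 1, TTGTAGT for hnRNP U siRNA 2 and CCCAAAT for the control siRNA. The match to hnRNP U siRNA 1 was found in ME2 and PDP2 (6.45% of the 31 genes, against 7.31% of 12730 protein-coding genes with a 3′ UTR), and that to hnRNP U siRNA 2 in ME2 (3.23%, against 13.1%). The match to the control siRNA was found in DLAT, at 2 positions, and in DLD (6.45%, against 15.2%). The sites are shown with their neighbouring bases because DLAT, DLD, ME2 and PDP2 were all called in total RNA below, PDP2 not in HP RNA. Such calls were common, since 28.0% of all genes were called higher and 29.3% lower in total RNA. DLAT, DLD and PDP2 rose and ME2 fell. The 7 matching bases are in capitals, for ME2 (chr18:50949646-50949652 and chr18:50954055-50954061), PDP2 (chr16:66889230-66889236), DLAT (chr11:112062710-112062716 and chr11:112063496-112063502) and DLD (chr7:107919866-107919872), all on the plus strand.
ME2 site of siRNA 1: gcaggaacGTATGCTgaattaaa
ME2 site of siRNA 2: gggtagtcTTGTAGTaattgctt
PDP2 site of siRNA 1: tgaagaaaGTATGCTttggtgct
DLAT first site of the control siRNA: cgattacaCCCAAATattgtgca
DLAT second site of the control siRNA: ccatttatCCCAAATcctgtctg
DLD site of the control siRNA: tatagttaCCCAAATtaagagag
The part of such matches in the levels was not tested.

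Levels were first set side by side per kb of exon, since longer transcripts yield more reads. In total RNA with control siRNA, PDP1, the catalytic subunit of pyruvate dehydrogenase phosphatase, was the most abundant member at 203 CPM per kb of annotated exon, followed by MDH2, the malate dehydrogenase of the cycle, at 86.0 and GOT2, the mitochondrial aspartate transaminase, at 61.7. At the low end, PDPR, the regulatory subunit of the same phosphatase, had 6.20 CPM per kb, ME2, a mitochondrial malic enzyme, 5.26, PDP2, the second catalytic subunit of the phosphatase, 4.80, and PC, pyruvate carboxylase, 1.72. PDP1 thus stood far above its isoform PDP2 and its partner PDPR, and its counts ran from 34913 to 54747 per library. Among the subunits of the pyruvate dehydrogenase complex the levels per kb were closer, with 22.0 for PDHA1 and 12.8 for PDHB of E1, 12.1 for DLAT (E2), 12.5 for PDHX, which anchors E3, and 29.5 for DLD, the E3 shared with the oxoglutarate dehydrogenase complex. When the length of the canonical transcript was used in place of all annotated exons, a choice made after the data were seen, PDP1 (270) and MDH2 (144) remained first and second and PDP2 (5.64) and PC (2.92) last. GLUD1, FH, SUCLA2 and MDH1, which have long annotated exons outside the canonical transcript, moved the most, with FH, the fumarase, at 9.96 by one length and 52.0 by the other.

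**Figure D1:**
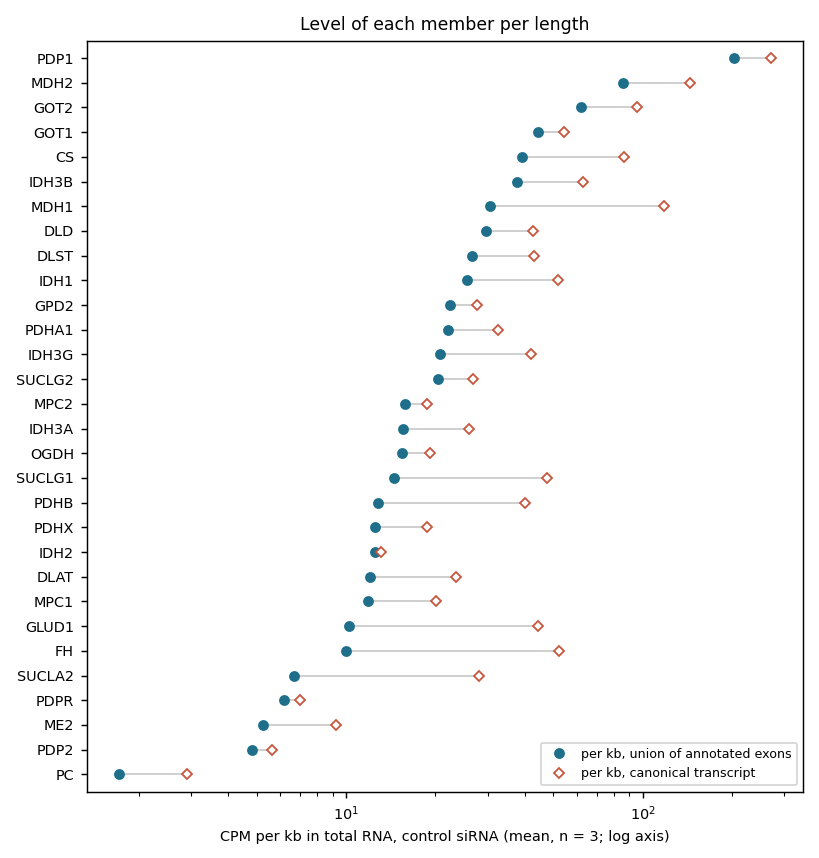
Mean CPM per kb in total RNA with control siRNA (log axis) for the 30 tested genes, by the length of the union of annotated exons (filled circles) and of the canonical transcript (open diamonds). PDP1 lies highest, at 203 and 270 CPM per kb, and PC lowest, at 1.72 and 2.92 CPM per kb.

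Summed over the 31 genes, mRNAs of the TCA cycle and pyruvate metabolism made up 6119, 6496 and 6153 CPM of HP RNA with hnRNP U siRNA, against 5731, 5764 and 5776 CPM with control siRNA. In total RNA they summed to 4348, 4459 and 4376 CPM with hnRNP U siRNA, against 4088, 4123 and 4095 CPM with control siRNA. In both kinds of RNA the 3 silenced libraries lay above the 3 control libraries. PDP1 alone held much of this difference, since without it the sums were 4682 ± 176 CPM in HP RNA with hnRNP U siRNA and 4543 ± 65.4 CPM with control siRNA, and 2991 ± 62.7 CPM in total RNA with hnRNP U siRNA and 2966 ± 63.9 CPM with control siRNA (SD, n = 3 each).

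Whether the individual mRNAs changed after silencing was asked in HP RNA and in total RNA separately, 6 libraries each, with edgeR's quasi-likelihood test and Benjamini-Hochberg adjustment over all 15920 genes. The largest changes were a fall of SUCLG2, the GTP-forming β subunit of succinyl-CoA ligase, and a rise of DLAT, the acetyltransferase core of pyruvate dehydrogenase, in both kinds of RNA, while DLST, the succinyltransferase core of oxoglutarate dehydrogenase, fell in both. In HP RNA, 8 of the 30 tested members rose and 7 fell, with 15 not passing the test, where 25.5% of all genes were called higher and 26.3% lower. In total RNA, 10 members rose and 11 fell, with 9 not passing, where 28.0% of all genes were called higher and 29.3% lower. The median log2 fold change of the members was 0.04 in HP RNA, beside 0.01 over all genes, and −0.02 in total RNA, beside 0.00. The members therefore did not move one way, and their calls were split between the directions much like those of all genes.

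Of the members, 14 passed the test in both kinds of RNA, each with the same sign, 7 higher (DLAT, DLD, GLUD1, GOT1, GOT2, MPC1 and PDP1) and 7 lower (DLST, IDH1, IDH2, MDH2, ME2, PDHA1 and SUCLG2). MDH1 passed in HP RNA alone, and CS, FH, GPD2, PC, PDP2, SUCLA2 and SUCLG1 in total RNA alone. The 8 that passed in neither were IDH3A, IDH3B, IDH3G, MPC2, OGDH, PDHB, PDHX and PDPR. A call in one kind of RNA and not in the other is not a difference between them, which is tested further on.

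**Figure D2:**
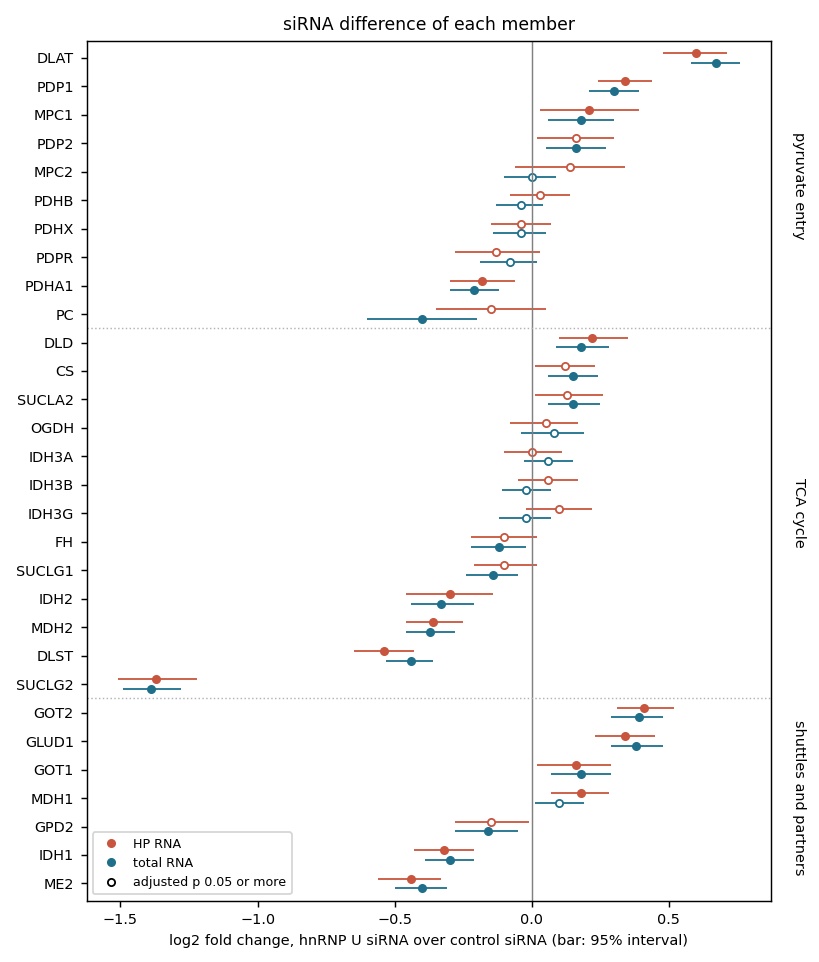
log2 fold change of hnRNP U siRNA over control siRNA (x axis) for the 30 tested genes, grouped by role, in HP RNA (upper of each pair) and total RNA (lower), with 95% intervals and filled symbols for adjusted p under 0.05 (edgeR, 3 libraries per group). SUCLG2 lies far left of all others at −1.37 and −1.39, and DLAT farthest right at 0.60 and 0.67.

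Among the 13 genes of the TCA cycle itself, 1 rose and 4 fell in HP RNA, and 3 rose and 6 fell in total RNA. SUCLG2 (chr3:67360460-67654612 of GRCh38, minus strand) had 33.8, 39.99 and 36.7 CPM in HP RNA with hnRNP U siRNA, against 95.3, 87.3 and 95.5 CPM with control siRNA. Its total RNA levels were 22.9, 24.7 and 24.6 CPM with hnRNP U siRNA, against 64.9, 60.5 and 63.3 CPM with control siRNA. Every silenced library lay far below every control library, at 0.388 of the control level in HP RNA (−1.37 on the log2 scale, SE 0.07, edgeR adjusted p = 3.7e-11) and 0.382 in total RNA (−1.39 on the log2 scale, SE 0.05, adjusted p = 1.8e-12). No other member changed by 2-fold or more between the siRNAs.

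The other subunits of succinyl-CoA ligase differed from SUCLG2 in sign or size. SUCLA2, the ATP-forming β subunit that pairs with the same α subunit, rose by 0.15 on the log2 scale in total RNA (SE 0.04, edgeR adjusted p = 0.007) and had 0.13 in HP RNA (SE 0.06, adjusted p = 0.068). SUCLG1, the shared α subunit, fell by 0.14 on that scale in total RNA (SE 0.05, edgeR adjusted p = 0.012) and had −0.10 in HP RNA (SE 0.06, adjusted p = 0.16). Its fall in total RNA did not pass without replicate 3 of hnRNP U siRNA in total RNA (adjusted p = 0.077 from edgeR). SUCLG2 had 36.8 ± 3.10 CPM in HP RNA with hnRNP U siRNA and 92.7 ± 4.65 CPM with control siRNA (SD, n = 3 each). SUCLA2 had 107 ± 7.63 CPM in HP RNA with hnRNP U siRNA and 94.9 ± 3.04 CPM with control siRNA (SD, n = 3 each). These CPM are not corrected for length and do not rank the β subunits. Per kb in HP RNA with control siRNA, SUCLG2 lay above SUCLA2 by all annotated exons and below it by the canonical transcript.

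In the oxoglutarate dehydrogenase complex the 3 components differed in direction. DLST (chr14:74881891-74903743, plus strand) had 120, 117 and 109 CPM in HP RNA with hnRNP U siRNA, against 165, 167 and 160 CPM with control siRNA. In total RNA it had 91.5, 88.5 and 87.3 CPM with hnRNP U siRNA, against 119, 126 and 118 CPM with control siRNA. The groups did not overlap, and DLST fell by 0.54 on the log2 scale in HP RNA (SE 0.05, adjusted p = 1.9e-07 from edgeR) and by 0.44 in total RNA (SE 0.04, adjusted p = 1.4e-07). OGDH, the E1 component that binds oxoglutarate, had a log2 fold change of 0.05 (HP RNA) and 0.08 (total RNA), neither past the test. Without replicate 2 of control siRNA the total RNA value was 0.14 (adjusted p = 0.036 from edgeR). DLD, the E3 component, rose by 0.22 (SE 0.06, adjusted p = 0.0044 from edgeR) in HP RNA and 0.18 (SE 0.05, adjusted p = 0.0027) in total RNA.

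The isocitrate dehydrogenases did not move together. The 3 subunits of the NAD-dependent enzyme of the cycle, IDH3A, IDH3B and IDH3G, had log2 fold changes between 0.00 and 0.10 in HP RNA and between −0.02 and 0.06 in total RNA, and none passed the test. Their 95% intervals in total RNA all lay between −0.12 and 0.15. In HP RNA the interval of IDH3G ran from −0.02 to 0.22, and its groups did not overlap. IDH3G was called there when all 12 libraries entered 1 fit (0.13, adjusted p = 0.029 from edgeR). The NADP-dependent enzymes both fell, the mitochondrial IDH2 by 0.30 in HP RNA and 0.33 in total RNA on the log2 scale, and the cytosolic IDH1 by 0.32 in HP RNA and 0.30 in total RNA. IDH2 had 49.3, 52.0 and 56.0 CPM in HP RNA with hnRNP U siRNA, against 65.9, 55.4 and 67.5 CPM with control siRNA, so that its HP groups overlapped through 1 library of each. The HP and total groups of IDH1 did not overlap.

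MDH2, which closes the cycle by making oxaloacetate, had 436, 477 and 458 CPM in HP RNA with hnRNP U siRNA, against 572, 560 and 582 CPM with control siRNA. It fell without overlap of the groups, by 0.36 on the log2 scale in HP RNA (SE 0.05, adjusted p = 1.2e-05 from edgeR) and by 0.37 in total RNA (SE 0.04, adjusted p = 1.1e-06). CS, citrate synthase, which admits acetyl-CoA, rose in total RNA by 0.15 (SE 0.04, adjusted p = 0.006 from edgeR) and had 0.12 in HP RNA (adjusted p = 0.056), which passed without replicate 2 of control siRNA (0.14, adjusted p = 0.045). FH, which makes malate from fumarate, had −0.10 in HP RNA (adjusted p = 0.14 from edgeR) and fell by 0.12 in total RNA (adjusted p = 0.033), a call that was lost in 6 of 13 alternatives, with adjusted p up to 0.14. Among these were leaving out replicate 2 or 3 of control siRNA in total RNA (adjusted p = 0.11 from edgeR for each) and replicate 1 (0.14) or 3 (0.13) of hnRNP U siRNA.

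Among the 10 genes of pyruvate entry and pyruvate dehydrogenase, 3 rose and 1 fell in HP RNA, and 4 rose and 2 fell in total RNA. DLAT (chr11:112025408-112064404, plus strand), which carries the lipoyl domains of the complex, had 183, 196 and 181 CPM in HP RNA with hnRNP U siRNA, against 126, 119 and 116 CPM with control siRNA. Total RNA gave 149, 147 and 141 CPM with hnRNP U siRNA, against 94.8, 89.3 and 89.1 CPM with control siRNA. All silenced libraries lay above all control libraries, and DLAT rose by 0.60 on the log2 scale (SE 0.05, adjusted p = 7.3e-08 from edgeR) in HP RNA and 0.67 (SE 0.04, adjusted p = 1.1e-09) in total RNA. The lipoyl-bearing cores of the 2 complexes, DLAT and DLST, thus moved in opposite directions. On the opposite strand, PIH1D2 covers 13.3% of the exon bases of DLAT. Such overlap was larger for IDH3A (38.8%), PDPR (22.3%), MPC2 (21.8%) and PDHA1 (19.3%), and since the strand setting of the counting is not given in the sources used here, reads of these pairs cannot be told apart.

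PDHA1, the α subunit of E1 and the site of the regulatory phosphorylation, had 181, 208 and 180 CPM in HP RNA with hnRNP U siRNA, against 202, 214 and 212 CPM with control siRNA. The total RNA libraries had 91.5, 97.8 and 94.6 CPM with hnRNP U siRNA, against 106, 113 and 108 CPM with control siRNA. It fell by 0.18 on the log2 scale in HP RNA (SE 0.06, adjusted p = 0.016 from edgeR), where the groups overlapped, and by 0.21 in total RNA (SE 0.04, adjusted p = 0.00056), where they did not. The HP call did not pass without replicate 1 (adjusted p = 0.084 from edgeR) or replicate 3 (0.082) of hnRNP U siRNA in HP RNA. PDHB, the β subunit of E1, and PDHX had log2 fold changes of 0.03 and −0.04 in HP RNA and of −0.04 and −0.04 in total RNA, none past the test.

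PDP1 had 1558, 1612 and 1551 CPM in HP RNA with hnRNP U siRNA, against 1264, 1186 and 1192 CPM with control siRNA. It rose by 0.34 on the log2 scale (SE 0.05, adjusted p = 1.4e-05 from edgeR) in HP RNA and 0.30 (SE 0.04, adjusted p = 1.6e-05) in total RNA. PDP2 rose in total RNA by 0.16 (SE 0.05, adjusted p = 0.013 from edgeR) and had 0.16 in HP RNA (SE 0.07, adjusted p = 0.051), which passed without replicate 2 of control siRNA (0.21, adjusted p = 0.015). Its total RNA call did not pass without replicate 1 of control siRNA in total RNA (adjusted p = 0.061 from edgeR). PDPR, the regulatory subunit, had −0.13 in HP RNA and −0.08 in total RNA, neither past the test. Both became calls without replicate 1 of control siRNA (−0.21, adjusted p = 0.015 from edgeR in HP RNA and −0.14, adjusted p = 0.018 in total RNA). Of the pyruvate carrier, MPC1 rose by 0.21 in HP RNA (SE 0.08, adjusted p = 0.044 from edgeR) and 0.18 in total RNA (SE 0.06, adjusted p = 0.012), and MPC2, its partner, had 0.14 in HP RNA and 0.00 in total RNA. Over the alternatives MPC2 ran from 0.01 to 0.27 in HP RNA, and it was called there without replicate 2 of control siRNA (0.27, adjusted p = 0.014 from edgeR) and with the replicate block (0.15, adjusted p = 0.038).

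The MPC1 call in HP RNA was lost in 7 of 13 alternatives, and the highest adjusted p came without replicate 3 of hnRNP U siRNA in HP RNA (0.21 from edgeR). It was also lost without replicate 1 of hnRNP U siRNA (adjusted p = 0.11) and without replicates 1, 2 or 3 of control siRNA (0.058, 0.14 and 0.087). In total RNA it was lost without replicate 3 of control siRNA (adjusted p = 0.053 from edgeR). PC, which makes oxaloacetate from pyruvate, had 8.05, 9.79 and 10.8 CPM in total RNA with hnRNP U siRNA, against 11.5, 13.0 and 13.2 CPM with control siRNA. The total RNA groups did not overlap, and PC fell by 0.40 on the log2 scale (SE 0.10, adjusted p = 0.002 from edgeR), while in HP RNA it had −0.15 (SE 0.09, adjusted p = 0.21).

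Among the 7 tested genes of the shuttles, malic enzymes and cytosolic partners, 4 rose and 2 fell in HP RNA, and 3 rose and 3 fell in total RNA. GOT2, the mitochondrial transaminase of the malate-aspartate shuttle, had 499, 534 and 500 CPM in HP RNA with hnRNP U siRNA, against 368, 386 and 371 CPM with control siRNA. It rose by 0.41 (SE 0.05, adjusted p = 2e-06 from edgeR) in HP RNA and 0.39 (SE 0.04, adjusted p = 1.6e-06) in total RNA, and its cytosolic partner GOT1 by 0.16 (SE 0.06, adjusted p = 0.049) and 0.18 (SE 0.05, adjusted p = 0.0073). MDH1, the cytosolic malate dehydrogenase of the shuttle, rose by 0.18 in HP RNA (SE 0.05, adjusted p = 0.0058 from edgeR) and had 0.10 in total RNA (adjusted p = 0.059), while the mitochondrial MDH2 fell in both. The MDH1 value in total RNA passed without replicate 1 of control siRNA (0.11, adjusted p = 0.032) or replicate 3 of hnRNP U siRNA (0.13, adjusted p = 0.039 from edgeR). GOT1 was the least stable of these, since its HP call was lost in 6 of 13 alternatives.

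For GOT1 in HP RNA the adjusted p from edgeR was 0.23 without replicate 2 and 0.18 without replicate 3 of control siRNA, and 0.061, 0.19 and 0.059 without replicates 1, 2 and 3 of hnRNP U siRNA. In total RNA the GOT1 call was lost without replicate 3 of control siRNA (adjusted p = 0.065 from edgeR). GLUD1, glutamate dehydrogenase, which feeds oxoglutarate into the cycle, rose by 0.34 in HP RNA (SE 0.05, adjusted p = 3.8e-05 from edgeR) and 0.38 in total RNA (SE 0.04, adjusted p = 1.2e-06). GLUD1 has the near-identical copy GLUD2, so that reads may have been split between them.

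ME2, which makes pyruvate from malate, had 84.4, 87.8 and 83.9 CPM in HP RNA with hnRNP U siRNA, against 107, 117 and 116 CPM with control siRNA, and fell by 0.44 on the log2 scale (SE 0.05, adjusted p = 2.8e-06 from edgeR). In total RNA it fell by 0.40 (SE 0.04, adjusted p = 9.4e-07). GPD2, the mitochondrial enzyme of the glycerol phosphate shuttle, fell by 0.16 in total RNA (SE 0.05, adjusted p = 0.017 from edgeR) and had −0.15 in HP RNA (SE 0.06, adjusted p = 0.063), which passed without replicate 1 of control siRNA (−0.23, adjusted p = 0.003). GPD2 had 143, 144 and 143 CPM in total RNA with hnRNP U siRNA, against 145, 176 and 160 CPM with control siRNA. The control libraries were spread, and the call was lost without replicate 2 (adjusted p = 0.10 from edgeR) or replicate 3 (0.051) of control siRNA.

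**Figure D3:**
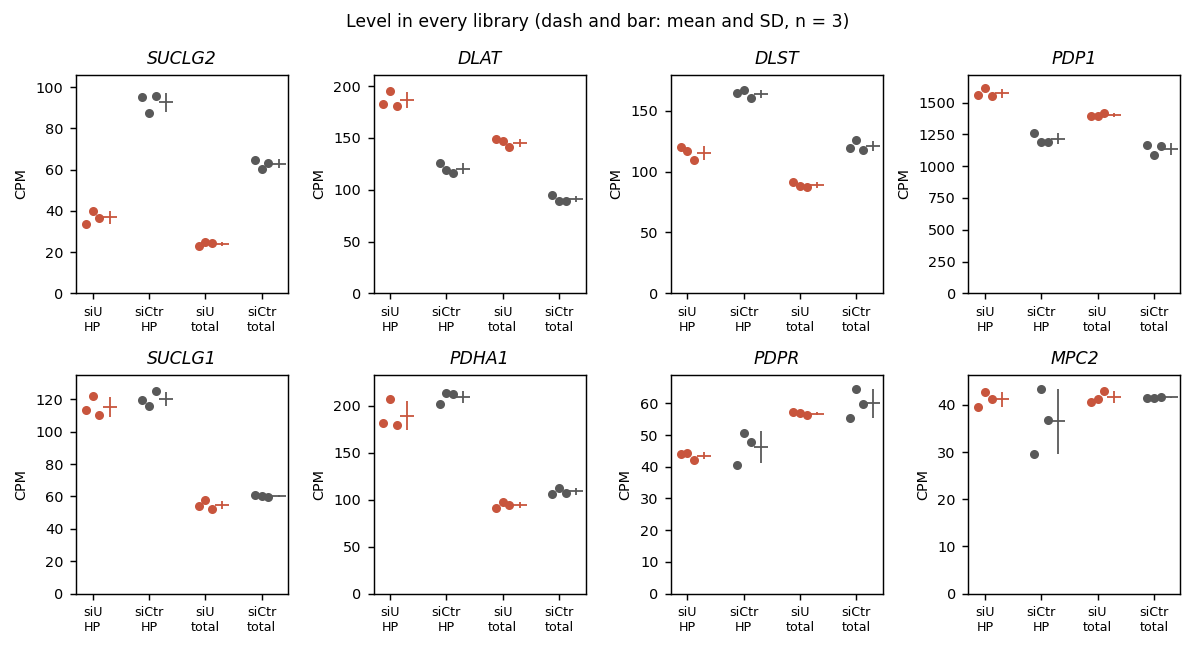
CPM of 8 members in each library (points) with the mean and SD of the 3 libraries beside them, for hnRNP U siRNA (siU) and control siRNA (siCtr) in HP RNA and in total RNA, each axis starting at 0. SUCLG2 separates the siRNAs in both kinds of RNA, SUCLG1 and PDHA1 separate HP from total RNA, and in MPC2 the control HP libraries spread from 29.5 to 43.3 CPM.

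The ratio of HP RNA to total RNA was then compared within each siRNA, over all 12 libraries in 1 fit. Most members held a larger share of HP RNA than of total RNA. With hnRNP U siRNA, 24 of the 30 tested members were higher in HP RNA, 1 was lower and 5 did not pass, where 35.1% of all genes were called higher and 31.8% lower. With control siRNA, 22 were higher, 1 was lower and 7 did not pass, where 33.8% of all genes were called higher and 33.2% lower. The median log2 ratio of the members was 0.61 with hnRNP U siRNA, beside 0.00 over all genes, and 0.58 with control siRNA, beside −0.03. The 22 members called higher with control siRNA were all called higher with hnRNP U siRNA too. High ratios were not particular to the members. Of 40 other tested genes of these pathways, described below, 27 were higher and 3 lower in HP RNA with hnRNP U siRNA (median 0.36). With control siRNA, 28 of the 40 were higher and 2 lower (median 0.40). The 15920 genes also include genes that are not protein-coding. Scaling by upper-quartile factors in place of TMM moved the median of all genes by −0.11 with hnRNP U siRNA and −0.08 with control siRNA. It then called 22 members higher and 2 lower with hnRNP U siRNA and 22 higher and 4 lower with control siRNA, where all genes had 4553 higher and 6157 lower with hnRNP U siRNA (5593 and 5055 with TMM) and 4509 higher and 6119 lower with control siRNA (5373 and 5278 with TMM).

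Of the TCA cycle genes, 12 of 13 were higher in HP RNA with either siRNA. SUCLG1 (chr2:84423528-84460045, minus strand) had the highest ratio with control siRNA. Its levels with hnRNP U siRNA were 113, 122 and 110 CPM in HP RNA, against 53.8, 57.7 and 52.5 CPM in total RNA, and with control siRNA they were 120, 116 and 125 CPM in HP RNA, against 61.1, 60.1 and 59.6 CPM in total RNA. In every experiment the HP level lay far above the total level, with log2 ratios of 1.07 (SE 0.05, adjusted p = 1.7e-13 from edgeR) with hnRNP U siRNA and 1.00 (SE 0.05, adjusted p = 6e-13) with control siRNA. OGDH had 0.13 (SE 0.06, adjusted p = 0.064 from edgeR) with hnRNP U siRNA and 0.13 (SE 0.06, adjusted p = 0.066) with control siRNA. It became a call with both siRNAs without replicate 1 of control siRNA in HP RNA (adjusted p = 0.043 from edgeR with hnRNP U siRNA and 0.014 with control siRNA). The same held without replicate 2 of control siRNA in total RNA (adjusted p = 0.046 from edgeR with hnRNP U siRNA and 0.012 with control siRNA). With hnRNP U siRNA it was also called without replicate 3 of hnRNP U siRNA (0.042) or replicate 1 of control siRNA (0.034) in total RNA. With the experiment as a block in edgeR, OGDH was called in both (adjusted p = 0.009 with hnRNP U siRNA and 0.01 with control siRNA).

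Within pyruvate dehydrogenase, PDHA1 (chrX:19343893-19361718, plus strand) had the second-highest ratio with control siRNA, 1.00 with hnRNP U siRNA (SE 0.05, adjusted p = 9.4e-13 from edgeR) and 0.94 with control siRNA (SE 0.05, adjusted p = 2.6e-12), from the values given above. PDHB followed at 1.02 with hnRNP U siRNA and 0.92 with control siRNA, while PDHX had 0.63 and 0.60 and DLAT 0.36 and 0.40, all past the test. The phosphatase subunits and the carrier lay apart from the catalytic subunits. PDPR (chr16:70114332-70162537, plus strand) had 43.95, 44.2 and 42.3 CPM in HP RNA and 57.1, 57.1 and 56.2 CPM in total RNA with hnRNP U siRNA.

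With control siRNA, PDPR had 40.6, 50.5 and 47.7 CPM in HP RNA and 55.5, 64.5 and 59.9 CPM in total RNA. It was the only member lower in HP RNA, at −0.39 with hnRNP U siRNA (SE 0.07, adjusted p = 3.3e-05 from edgeR) and −0.37 with control siRNA (SE 0.07, adjusted p = 4.9e-05), with HP and total groups that did not overlap. MPC2 (chr1:167916675-167937072, minus strand) had the next-lowest ratio with control siRNA. Its levels with hnRNP U siRNA were 39.6, 42.8 and 41.2 CPM in HP RNA, against 40.7, 41.3 and 43.01 CPM in total RNA.

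With control siRNA, MPC2 had 29.5, 43.3 and 36.9 CPM in HP RNA, against 41.5, 41.5 and 41.7 CPM in total RNA, the first HP library standing below the others. Its log2 ratio was −0.02 with hnRNP U siRNA (SE 0.08, adjusted p = 0.87 from edgeR) and −0.18 with control siRNA (SE 0.09, adjusted p = 0.064). The second became a call without replicate 2 of control siRNA in HP RNA (−0.32, adjusted p = 0.00061). MPC1, PDP2 and PC had ratios between −0.11 and 0.18 with either siRNA, none past the test. Of these, only PC with hnRNP U siRNA became a call on leaving out a library (0.27 without replicate 3 of hnRNP U siRNA in total RNA, adjusted p = 0.033 from edgeR). PDP1 had 0.17 with hnRNP U siRNA (SE 0.04, adjusted p = 0.0025 from edgeR). It did not pass without replicate 2 of hnRNP U siRNA in HP RNA (0.08, adjusted p = 0.20 from edgeR), which moved the median of all genes by −0.07. The call was also lost with upper-quartile factors (0.05, adjusted p = 0.29) or a minimum count of 50 (0.07, adjusted p = 0.15). With control siRNA PDP1 had 0.10 (SE 0.04, adjusted p = 0.064 from edgeR), which passed without replicate 1 of control siRNA in total RNA (0.12, adjusted p = 0.039).

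Among the shuttle and cytosolic genes, MDH1 had the highest ratio, 0.91 with hnRNP U siRNA and 0.80 with control siRNA, and GPD2 the lowest, 0.17 (adjusted p = 0.03 from edgeR) and 0.12 (adjusted p = 0.11). The value with control siRNA passed without replicate 1 of HP RNA (0.20, adjusted p = 0.0059 from edgeR) or replicate 2 of total RNA (0.19, adjusted p = 0.016). The GPD2 call with hnRNP U siRNA was lost in 9 of 19 alternatives, among them without replicate 2 (adjusted p = 0.34 from edgeR) or 3 (0.055) of HP RNA and without replicate 2 (0.058) or 3 (0.067) of total RNA. Leaving out replicate 2 of HP RNA moved the median of all genes by −0.07. IDH1, a cytosolic enzyme, had 0.61 with hnRNP U siRNA and 0.60 with control siRNA, near the median of all members. GOT2, the mitochondrial transaminase, had 0.75 with hnRNP U siRNA and 0.70 with control siRNA, and the cytosolic GOT1 had 0.78 with hnRNP U siRNA and 0.76 with control siRNA, all past the test.

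**Figure D4:**
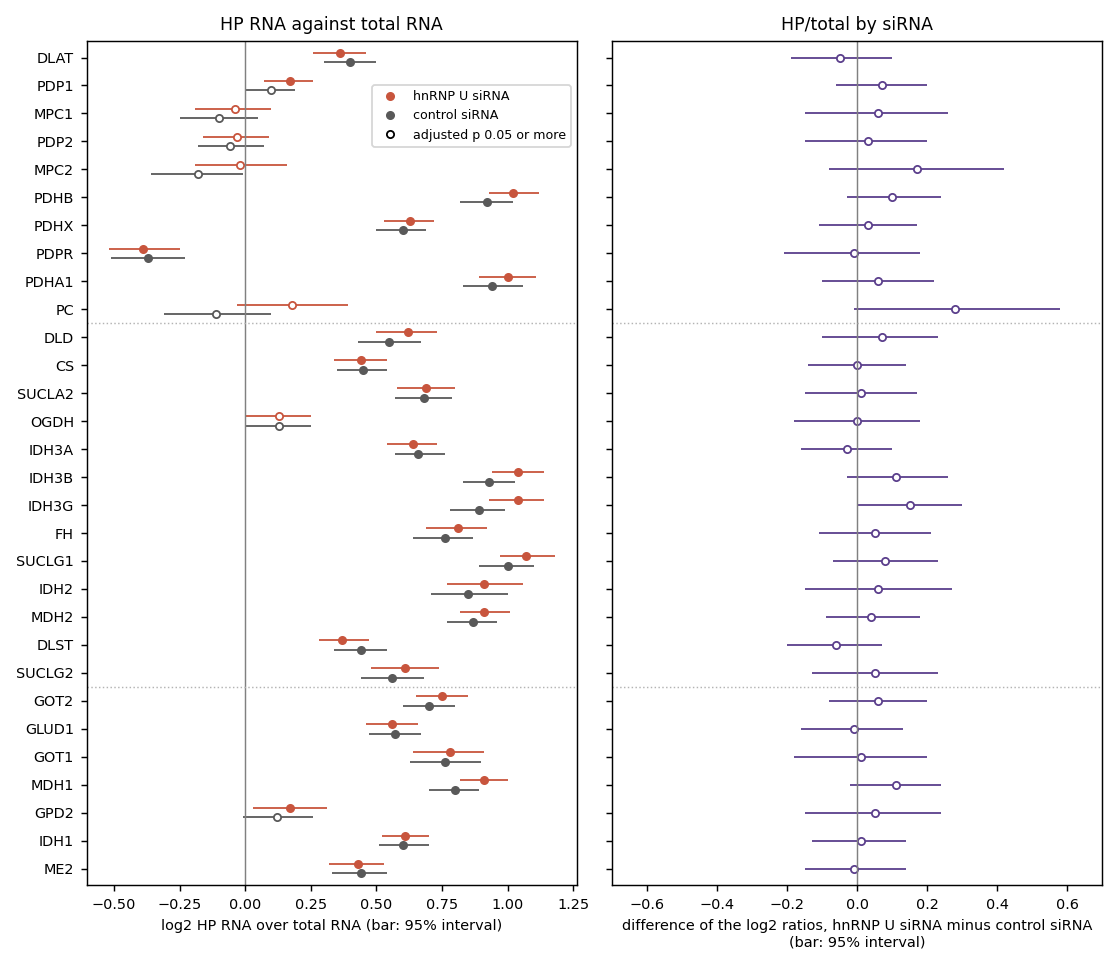
Left, log2 ratio of HP RNA to total RNA for each of the 30 tested genes with hnRNP U siRNA (upper of each pair) and control siRNA (lower), and right, the difference of the 2 ratios (hnRNP U siRNA minus control siRNA), with 95% intervals and filled symbols for adjusted p under 0.05 (edgeR, all 12 libraries). Most ratios lie to the right of 0, PDPR lies to the left at −0.39 and −0.37, and no difference on the right has a filled symbol.

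Whether silencing shifted a member between HP and total RNA was asked with the interaction of siRNA and fraction. No member was called, where 0.163% of all genes were called in either direction, that is 26 genes. DESeq2 also called 0 members. In edgeR 1 member, IDH3G, a regulatory subunit of NAD-dependent isocitrate dehydrogenase, had an unadjusted p under 0.05, as did 1120 genes of all 15920. In DESeq2 0 members did. IDH3G had a difference of 0.15 on the log2 scale (SE 0.07, 95% interval 0.00 to 0.30, adjusted p = 0.70 from edgeR), positive in each of the 3 experiments (0.14, 0.23 and 0.10). The 30 differences ran from −0.06 to 0.28 with a median of 0.05, beside 0.04 over all genes, and 29 of them lay within 0.2 of 0.

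The exception was PC, with 0.28 (SE 0.14, 95% interval −0.01 to 0.58, adjusted p = 0.73 from edgeR), the member of lowest count among those tested. For the members with the largest siRNA changes the intervals were narrower. SUCLG2 had a difference of 0.05 (95% interval −0.13 to 0.23), DLAT −0.05 (−0.19 to 0.10) and DLST −0.06 (−0.20 to 0.07), and MPC2, whose control HP libraries were spread, had 0.17 (−0.08 to 0.42). With 3 libraries per group, shifts within these intervals could not be told from 0.

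The 9 members with the RG4 motif in any annotated transcript were described in the same comparisons. FH, IDH1, MDH2, PC and PDHX carry it only outside the canonical transcript, and the use of those transcripts was not measured. Of these, IDH1 and MDH2 fell in both kinds of RNA and FH and PC in total RNA alone. With a canonical motif, DLST and ME2 fell in both and GPD2 in total RNA alone. Of the 9, 0 rose and 4 fell in HP RNA (median log2 fold change −0.15), and 0 rose and 7 fell in total RNA (median −0.30). By edgeR at an unadjusted p under 0.05, and by DESeq2, 0 were higher in either. DESeq2 called 4 lower in HP RNA and 6 in total RNA. In total RNA the call of FH was lost in 6 of 13 alternatives and that of GPD2 in 2. Of the 21 tested members without the motif, 8 rose and 3 fell in HP RNA (median 0.13), and 10 rose and 4 fell in total RNA (median 0.10). Over all protein-coding genes with the motif, 23.6% rose and 32.2% fell in HP RNA and 26.5% rose and 35.0% fell in total RNA. Without it, 26.1% rose and 29.5% fell in HP RNA and 28.3% rose and 32.5% fell in total RNA. In HP/total no member of either kind was called, with medians of 0.03 with the motif and 0.06 without it. SUCLG2, which fell the most, has no motif in any annotated transcript. The members with the motif are few, and the difference between the members with and without it was not tested.

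Beyond the 31 genes, 44 other genes of the same pathways were examined, of which 40 were tested. In HP RNA 8 rose and 11 fell (of all genes, 25.5% higher and 26.3% lower), and in total RNA 11 rose and 14 fell (28.0% higher and 29.3% lower), with a median log2 fold change of −0.01 in both. In HP/total 0 were called by edgeR and 0 by DESeq2, with 4 at an unadjusted p under 0.05 in edgeR. The lactate dehydrogenases, and the kinases that switch off pyruvate dehydrogenase, were counted together as 6 genes. Of these, HP RNA had 0 called higher and 3 called lower, and total RNA 0 and 4. These numbers are too small to set against those shares. By edgeR at an unadjusted p under 0.05, and by DESeq2, 0 were higher in either.

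PDK1, one of these kinases, had 10.5, 11.2 and 12.8 CPM in HP RNA with hnRNP U siRNA, against 18.4, 17.8 and 20.3 CPM with control siRNA, and fell by 0.75 on the log2 scale in HP RNA (SE 0.09, adjusted p = 2.4e-06 from edgeR) and by 0.66 in total RNA (SE 0.07, adjusted p = 4.3e-07). PDK4, a weakly expressed kinase of the same family, had 1.86, 2.16 and 1.93 CPM in HP RNA with hnRNP U siRNA, against 4.97, 2.82 and 2.97 CPM with control siRNA, and fell by 0.88 (SE 0.20, adjusted p = 0.0013 from edgeR) and by 0.68 in total RNA (SE 0.19, adjusted p = 0.0065). PDK3 fell by 0.32 in HP RNA and by 0.27 in total RNA, and PDK2 had −0.04 and −0.02. Of the lactate dehydrogenases, LDHB fell by 0.13 in total RNA and had −0.06 in HP RNA. The call was lost without replicate 1 (adjusted p = 0.15 from edgeR) or 3 (0.053) of control siRNA and without replicate 1 (0.10) or 3 (0.28) of hnRNP U siRNA. DESeq2 did not call LDHB either (adjusted p = 0.071). In edgeR the call was also lost with DESeq2's size factors (adjusted p = 0.054) and upper-quartile factors (0.068). The same held for a minimum count of 50 (0.06) and all 12 libraries in 1 fit (0.068). LDHA had −0.01 in HP RNA and −0.05 in total RNA.

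Of the genes that supply the cofactors of the dehydrogenase complexes, LIPT1, a lipoyl transferase, fell by 0.52 in total RNA (SE 0.14, adjusted p = 0.0037 from edgeR) and had −0.28 in HP RNA (adjusted p = 0.13). DBT, the E2 core of the branched-chain dehydrogenase and thus a relative of DLAT and DLST, fell by 0.49 in HP RNA (SE 0.06, adjusted p = 4.7e-06 from edgeR) and by 0.55 in total RNA (SE 0.05, adjusted p = 8.2e-08). SLC25A1, which exports citrate to the cytosol, fell by 0.63 in HP RNA (SE 0.06, adjusted p = 8.7e-08 from edgeR) and by 0.57 in total RNA (SE 0.04, adjusted p = 1e-08).

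In the opposite direction, PCK2, the mitochondrial enzyme that makes phosphoenolpyruvate from oxaloacetate, rose by 0.59 in HP RNA (SE 0.10, adjusted p = 0.00011 from edgeR) and by 0.54 in total RNA (SE 0.11, adjusted p = 0.00037). GPD1, the cytosolic partner of GPD2 in the glycerol phosphate shuttle, had 5.21, 4.07 and 4.73 CPM in HP RNA with hnRNP U siRNA, against 1.83, 1.85 and 1.78 CPM with control siRNA. It rose by 1.32 in HP RNA (SE 0.15, adjusted p = 8.3e-07 from edgeR) and by 1.21 in total RNA (SE 0.17, adjusted p = 1.4e-05), from low levels. Of the 6 other TCA cycle enzymes, 2 rose and 1 fell in each kind of RNA, but those that rose were not all the same. SDHC rose by 0.17 in total RNA and had 0.03 in HP RNA. SDHB rose by 0.15 in HP RNA and had 0.07 in total RNA. The SDHB call was lost without replicate 2 (adjusted p = 0.067 from edgeR) or 3 (0.056) of control siRNA or replicate 1 of hnRNP U siRNA (0.073) in HP RNA. SDHD, a membrane anchor of succinate dehydrogenase, fell by 0.36 in HP RNA and by 0.22 in total RNA, and ACO1, the cytosolic aconitase, rose by 0.22 in both.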

How the data were processed

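RNA-seq of 12 libraries was analysed. Per the methods, the authors built poly(A)-selected directional libraries, read 75 bp from 1 end, trimmed them at a quality of 30 to at least 18 nt, aligned them to hg38 with STAR, and deposited raw counts per gene over GENCODE release 43 with no normalization. The submitters' notes name CASAVA 1.8 for base calling. ERCC spikes were not used here.

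Gene names, coordinates and transcript sequences came from GENCODE release 44, in which 62639 of 62703 gene identifiers were found. Genes were kept by filterByExpr (minimum count 10 over the 4 groups). Counts were tested with edgeR 4.0.16 in R 4.3.3 by its quasi-likelihood F-test after TMM scaling, with no block, and p-values were adjusted by Benjamini-Hochberg over the genes kept (threshold 0.05). HP RNA and total RNA were fitted apart on 6 libraries each, and HP against total RNA and its interaction with the siRNA over all 12. CPM used TMM-scaled library sizes. Reads carry no molecular identifiers, so errors are those between the 3 libraries of a group, each with its own experiment code in the titles and described in the study as 3 independent experiments per group.

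Alternatives were DESeq2 1.42.0, its size factors, upper-quartile factors, no filter, a minimum of 50 counts, a joint fit of the 12 libraries, a replicate block by experiment or by culture, and leaving out each library in turn. The code was tested on simulated data. All members are named. Every library's value was to be given for members called between siRNAs and changed by 0.5 or more on the log2 scale, those called in HP/total and the 2 highest and 2 lowest ratios of HP to total RNA with control siRNA; it is also given for HNRNPU and some other genes. Other pathway genes were named at the same threshold of 0.5, and PDK2, PDK3, LDHA, LDHB, SDHB, SDHC, SDHD and ACO1 beyond it, after their values were seen. Some sequences and genes under that rule are not reported here. The members and lists were chosen with earlier results of these data known.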

Additional observations from a re-analysis of the deposited data

How the results depend on the processing

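Of the members called between the siRNAs, 12 of 15 in HP RNA and 15 of 21 in total RNA were called under all 13 alternatives to each, the exceptions being MPC1, GOT1 and PDHA1 in HP RNA and FH, GPD2, MPC1, GOT1, SUCLG1 and PDP2 in total RNA. Over all comparisons, 39 single-gene values were no longer past the threshold under an alternative, 62 passed it that had not, and 0 called values changed sign. In HP/total, 0 members were called under any of 19 alternatives.

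The number of members lower in HP than in total RNA was small and moved. With hnRNP U siRNA it was 1, and 2 with upper-quartile factors. With control siRNA it was 1, and 4 with upper-quartile factors (MPC1, MPC2 and PDP2 beside PDPR), 2 with no filter on low counts, 4 with a minimum count of 50, 2 with the replicate block and 2 with the replicate block by culture, and 1 to 2 when a library was left out. The cause was not tested. In HP/total over all genes, 26 genes were called, against 49 with DESeq2, 61 with no filter, 78 with the replicate block and 140 with the block by culture.

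The titles give the 4 groups the same 3 experiment codes. Deviations from the group means of same-numbered libraries were correlated. Between the siRNAs the correlations were −0.00376 to 0.0558 in total RNA, where not every library correlated best with its own number. In HP RNA they were 0.0279 to 0.0843, and there every library correlated best with its own number. The main tests between the siRNAs took no pairs in either, and so left out a shared experiment in HP RNA. Between HP and total RNA the correlations were 0.0486 to 0.134, and every library correlated best with its own number. HP and total libraries of 1 siRNA and code can thus be read as pairs. The main tests of HP against total RNA and of the interaction left this pairing out. With the replicate block, 26 members were higher in HP than in total RNA with hnRNP U siRNA (24 without it) and 25 with control siRNA (22 without it). The block by culture gave the same 26 and 25. OGDH was called with both siRNAs, PC with hnRNP U siRNA, and GPD2, PDP1 and, as lower, MPC2 with control siRNA. Between the siRNAs the replicate block gave 12 higher and 9 lower in HP RNA (8 and 7 without it), adding CS, SUCLA2, MPC2, PDP2, FH and GPD2, and 11 and 11 in total RNA (10 and 11 without it), adding MDH1. PC, the tested member of lowest count, had an interval of −0.01 to 0.58 on the log2 scale in HP/total, and ME3 had too few counts to be tested. Without spike values, changes in the total amount of mRNA per cell were not measured.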
